A study of Rattus norvegicus with 18 samples.

Results

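A set of 129 abundant genes whose exonic read level lay between 0.15 and 0.4 of the naive level after L5 spinal nerve transection (SNT) is described here, out of 26172 Ensembl rat genes listed. The members were chosen by their values at the 50 M read depth: a mean of at least 2000 normalized counts in the 3 naive libraries, a ratio of the SNT mean to the naive mean above 0.15 and at most 0.4, and the highest SNT library below the lowest naive library. Of the 1947 genes at this level in naive tissue, 171 had a ratio of at most 0.4 and 9 of these lay at 0.15 or below, which left 162. Each of the 162 had all its SNT libraries below all its naive libraries. The 33 genes among them for which the study's table of exonic against intronic change gives a symbol were then left out. The copy of that table used here is shortened, and 59 of the 129 members have identifiers later than its last entry. The set is thus defined in part by where the copy ends. The other 70 members have identifiers within its range and are not listed in it. The authors left genes that overlap another gene, and genes with few intronic reads, out of that analysis. The set may therefore also depend on gene overlap and on intronic reads, which was not tested. Neither the copy nor the RefSeq gene table that was searched gives a symbol for the members. They are therefore described as a group, and 2 are given by identifier.

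Poly(A) enriched RNA came from the L5 dorsal root ganglia (DRG) of male Wistar rats, and each library held the pooled ganglia of several animals. The SNT group had the L5 spinal nerve cut and the ganglia were taken on day 7, whereas the naive group had no surgery, so that the surgery itself and the nerve cut cannot be told apart. There were 3 SNT and 3 naive libraries, each made from different animals. Portions of every library were sequenced at nominal depths of 50 M, 25 M and 17 M reads. Normalized counts are the reads on the exons of a gene divided by a size factor for the library, and they do not correct for gene length, so levels of different genes cannot be compared as numbers of transcripts.

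The DRG holds the cell bodies of the sensory neurons together with satellite glial cells, Schwann cells, resident macrophages, fibroblasts and blood vessels. When the peripheral axon is cut, the neuron is known to turn from transmission to repair: transcripts for neurofilaments, ion channels and transmitter release fall, whereas those for growth and stress proteins rise. Immune and connective tissue cells also increase in the injured ganglion. In whole tissue, fewer cells of a type and less RNA per cell cannot be told apart.

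SNT replicate 1 stood apart from the other SNT libraries among the genes called different between SNT and naive. The share given next was not computed for SNT replicates 2 and 3. Of the 10497 genes called different between SNT and naive at 50 M (limma, Benjamini-Hochberg adjusted p under 0.1), 88.9% had a level in SNT replicate 1 between the naive mean and the mean of SNT replicates 2 and 3. Values without this library are therefore given below. Total reads on exons ranged from 15000789 to 17480115 in SNT and from 18588873 to 19031166 in naive libraries at 50 M.

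The identity of the tissue was checked with marker genes that could be given a symbol. Sensory neuron markers matched for 8 of 23 genes and their summed level was 364276 to 417942 normalized counts in naive and 110999 to 225549 in SNT libraries. The sum leans on Nefh, with a naive mean of 203041 and a ratio of 0.276. The ratios were 0.258 for Snap25, 0.269 for Calca and 0.424 for Scn9a. They were 0.571 for Sncg, 0.641 for Ret, 0.665 for Uchl1 and 0.829 for Prph. Nefh, Snap25 and Calca lie within the limits used to choose the members. Of these 8 sensory neuron genes 7 were called lower in SNT and 0 higher. Schwann and satellite glial markers matched for 6 of 14 genes and summed to 286241 to 525985 in naive and 348377 to 438209 in SNT libraries, with 0 genes called lower and 3 called higher. Of 12 genes listed for fibroblasts and endothelium 3 matched, the collagen genes Col1a1 and Col3a1 and the proteoglycan gene Dcn. Their summed level was 45070 to 71315 normalized counts in naive and 101732 to 154362 in SNT libraries, and all 3 were called higher. Of the 15 macrophage markers the leukocyte gene Ptprc alone matched, with 154 to 430 normalized counts in naive and 666 to 1860 in SNT libraries, and it was called higher. Of 15 axotomy response genes 2 matched, Stmn4 and Stac2, which summed to 416 to 490 normalized counts in naive and 4180 to 5553 in SNT libraries and were both called higher. Over all genes tested, 29.4% were called lower and 29.2% higher. With libraries scaled to equal totals these shares were 22.1% and 36.8%. No matched marker was at 0. No listed marker of T or NK cells, skeletal muscle or red blood cells matched, so these were not checked. The part of these shifts in the level of the members was not tested.

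The members took a visible part of the exonic reads of the naive libraries. They took 6.73%, 7.15% and 6.40% of all exonic reads in naive replicates 1, 2 and 3 at 50 M, or 6.76% ± 0.375 (SD, n = 3). In SNT replicates 1, 2 and 3 they took 3.37%, 1.17% and 1.42%, or 1.99% ± 1.20 (SD, n = 3). The lowest naive share was thus above the highest SNT share, as the choice of the members requires. Of the SNT libraries, replicate 1 came nearest to naive. The sum of their normalized counts in SNT was 0.264 of the naive sum. It was 0.288 without the 2 most abundant members, which carried 39.1% of the naive sum.

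Naive means of the members ran from 2014 to 252132 normalized counts, with a median of 4299 and quartiles of 2775 and 7157. SNT means ran from 315 to 64316, with a median of 1300. The ratio of SNT to naive means had a median of 0.307 over the members, with quartiles of 0.236 and 0.364. Over all 1947 genes with a naive mean of at least 2000 the median ratio was 0.788. A ratio under 0.2 was found for 14 members and one of 0.35 or more for 38. In the plot of SNT against naive means the members lie below the main cloud of abundant genes at every level, as the upper limit on the ratio requires.

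**Figure D1:**
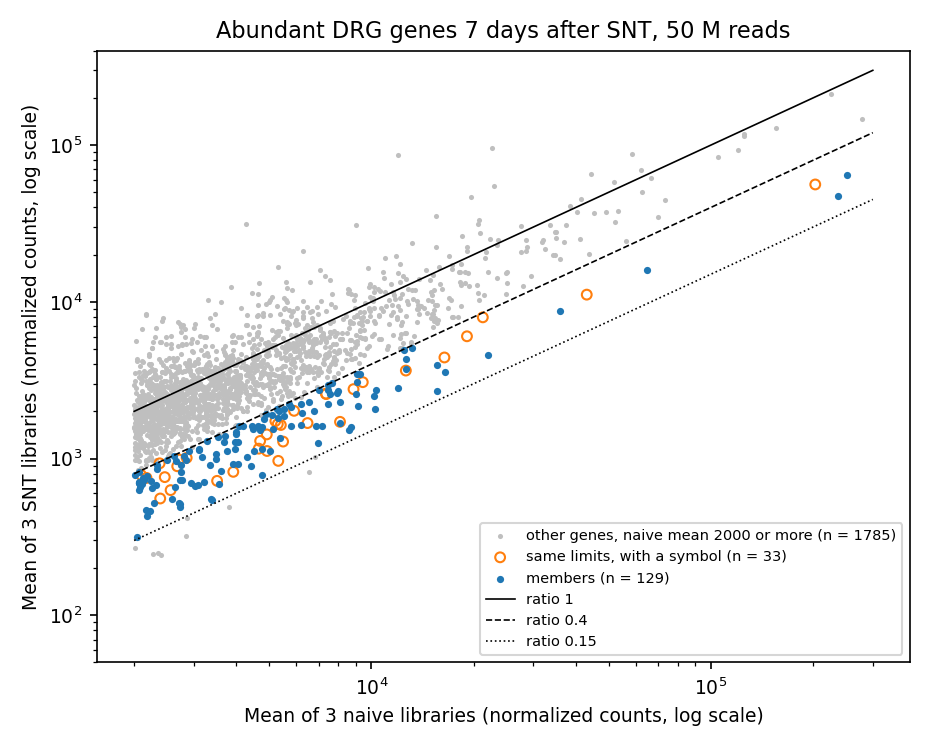
Mean normalized count in the 3 SNT libraries against the mean in the 3 naive libraries at 50 M, both on log scales, for the 1947 genes with a naive mean of at least 2000. Filled blue points are the 129 members, open orange points the 33 genes within the same limits that have a symbol, and lines mark ratios of 1, 0.4 and 0.15. The members lie between the lines of 0.15 and 0.4, and 2 of them lie far to the right.

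The member with the highest naive level was ENSRNOG00000013916. It had 257718, 259482 and 239196 normalized counts in naive replicates 1, 2 and 3 and 112354, 35501 and 45094 in SNT replicates 1, 2 and 3. All SNT libraries were below all naive libraries, and SNT replicate 1 was far above the other SNT libraries. The means were 252132 ± 11237 in naive and 64316 ± 41877 in SNT libraries (SD, n = 3), a ratio of 0.255. Without SNT replicate 1 the ratio was 0.160. By naive mean this gene ranked 2 among all genes of the table. A further member ranked 3, with 237501 ± 15169 normalized counts in naive libraries (SD, n = 3) and a ratio of 0.199, and the next member by level had 65041.

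The member with the lowest ratio was ENSRNOG00000029903. It had 2106, 2112 and 1915 normalized counts in naive replicates 1, 2 and 3 and 718, 116 and 109 in SNT replicates 1, 2 and 3. SNT replicate 1 supplied most of the SNT mean of 315 ± 350 normalized counts (SD, n = 3), so the SD was larger than the mean. The ratio was 0.154 with all libraries and 0.0552 without SNT replicate 1. In SNT replicates 2 and 3 this gene kept 5.68% and 5.36% of its naive mean of 2044 ± 112 (SD, n = 3).

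Values close to the limits show how the set is bounded. The lowest naive mean inside the set was 2014 normalized counts, and the highest naive mean that missed the floor, among genes that met every other condition, was 1998. The highest ratio inside was 0.397 and the next ratio above the limit 0.402. At the lower limit the ratios were 0.154 inside and 0.1497 outside. The lowest naive library was 1.36 to 2.89 times the highest SNT library, with a median of 1.88.

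SNT replicate 1 was the highest of the 3 SNT libraries for all 129 members at 50 M. The order of the SNT libraries was not used to choose the members. The same was true of 1249 of the 1424 genes with a naive mean of at least 2000 and a ratio under 1 (87.7%). The lowest SNT library was replicate 2 for 120 members and replicate 3 for 9. The count of members with SNT replicate 1 highest was 129 at 25 M and 128 at 17 M, where SNT replicate 2 was highest for the remaining member. With libraries scaled to equal totals at 50 M the count was 128.

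As a percentage of the naive mean, the members kept a median of 49.3% of their level in SNT replicate 1, 19.1% in SNT replicate 2 and 23.1% in SNT replicate 3. The ranges were 33.7% to 62.7%, 4.23% to 42.4% and 5.08% to 35.5%. In SNT replicate 1 only 20 members were at 40% or less, and 60 were at 50% or more. In contrast, 128 members were at 40% or less in both SNT replicates 2 and 3. Fewer than 10% of the naive level was left for 19 members in SNT replicate 2 and for 12 in SNT replicate 3. The mean ratio of many members thus combined a library near the middle of the scale with a pair of lower ones. This can be seen in the plot of each member by library.

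**Figure D2:**
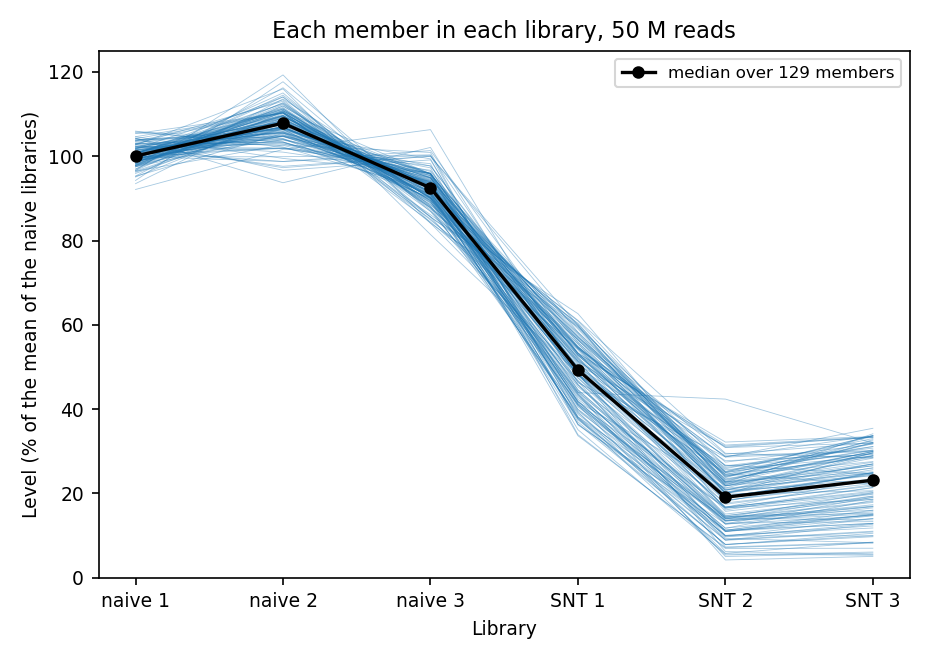
Level of each of the 129 members in each of the 6 libraries at 50 M, as a percentage of the mean of the naive libraries for that gene. Each thin line joins the values of 1 gene and the black points are medians over the members. The lines fall from around 100% in the naive libraries to a median of 49.3% in SNT replicate 1, 19.1% in SNT replicate 2 and 23.1% in SNT replicate 3.

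Without SNT replicate 1 the ratios of the members ran from 0.0466 to 0.372, with a median of 0.216. All 129 were at most 0.4, which had to be so because the library left out was the highest SNT library of every member. At 0.15 or below were 36, which would have left the set at its lower limit. The fall from the naive mean seen in SNT replicate 1 was a median of 64.7% of the fall seen in the mean of SNT replicates 2 and 3, with quartiles of 59.7% and 68.6% and a range of 49.3% to 89.3%. SNT replicate 1 therefore fell short of the other SNT libraries by an amount that varied moderately from member to member.

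The members that kept most of their level in one SNT library tended to keep most in the others. Across members, which are not independent replicates and share the naive mean in the denominator, Spearman's rho of the percentage left was 0.947 between SNT replicates 2 and 3, 0.751 between replicates 1 and 2 and 0.809 between replicates 1 and 3. The SD over members of the log2 of the share left was 0.66 in SNT replicate 2 and 0.67 in SNT replicate 3, but 0.22 in SNT replicate 1. These SDs are a description, since the limits on the SNT mean used to choose the members bound the highest SNT library, replicate 1, most closely on a log scale. The coefficient of variation had a median of 54.9% over the 3 SNT libraries, 14.3% over SNT replicates 2 and 3, and 7.95% over the naive libraries. For all 1947 genes at this level the medians were 12.6% in SNT and 5.25% in naive libraries.

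The naive libraries also followed a common order. Naive replicate 2 was the highest naive library for 114 of the 129 members and naive replicate 3 the lowest for 116 (89.9%). Over all 1947 genes with a naive mean of at least 2000, the numbers were 1212 (62.2%) and 1253 (64.4%). The size of this difference was small. The median level relative to the naive mean was 100% in naive replicate 1, 108% in replicate 2 and 92.5% in replicate 3. The summed glial markers moved the other way, with 447223 normalized counts in naive replicate 1, 286241 in replicate 2 and 525985 in replicate 3, whereas the summed sensory neuron markers were 392262, 417942 and 364276. The part of this difference between libraries in the values of the members was not tested.

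Members were found at every naive level above the floor. The median ratio was 0.319 for the 37 members with naive means from 2000 to 3000, 0.316 for the 39 from 3000 to 5000, 0.339 for the 37 from 5000 to 10000 and 0.245 for the 16 above 10000. Members made up 4.74%, 7.14%, 9.05% and 7.58% of all genes in these classes. Spearman's rho between naive mean and ratio over the 129 members was -0.064, and both measures share the naive mean.

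The runs at 25 M and 17 M repeat the measurement on the same libraries and are not independent of the values used to choose the members. The median ratio was 0.306 at 25 M (range 0.146 to 0.399) and 0.313 at 17 M (range 0.148 to 0.413). Between 50 M and the shallower runs the log2 ratio of a member moved by a median of 0.03 at 25 M and 0.04 at 17 M, and at most by 0.13 and 0.21. Ratios above 0.15 and at most 0.4 were found for 128 members at 25 M and 120 at 17 M. Of the other 9 at 17 M, 7 were above 0.4 and 2 at 0.15 or below. The highest SNT library was below the lowest naive library for 129 members at both depths, against 30.6% and 29% of all tested genes with SNT below naive at 25 M and 17 M.

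**Figure D3:**
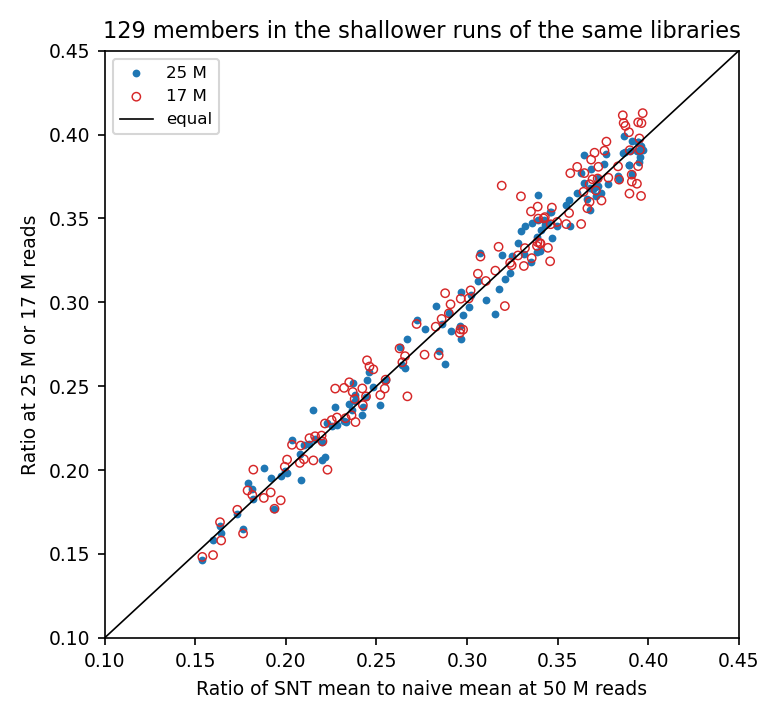
Ratio of SNT mean to naive mean at 25 M (filled blue) and 17 M (open red) against the ratio at 50 M, on linear axes, for each of the 129 members. The line marks equal ratios. Points lie close to the line over the whole range, and 7 members exceed 0.4 at 17 M.

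ENSRNOG00000013916 had ratios of 0.254 at both 25 M and 17 M, and ENSRNOG00000029903 had ratios of 0.146 and 0.148. Counting error was small for the members. The lowest count of a member in any library at 50 M was 107 reads, which corresponds to a relative counting error of 9.67%, and over members the lowest of the 6 libraries had a median of 711 reads. At 17 M these numbers were 39 and 247 reads. Taken library by library, 107 to 124 of the 129 members differed between the 17 M and the 50 M run by less than 2 times their counting error. The spread of these differences was 0.92 to 1.42 times the counting error, widest in naive replicate 2, with 107 members. Molecular identifiers were not used, so these errors cover the counting of reads and not of molecules.

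The limma fit on log2(normalized count + 1) called all 129 members lower in SNT at 50 M, where 29.4% of all 17930 tested genes were called lower and SNT libraries lay below naive libraries without overlap for 31.3%. Among the 1947 genes with a naive mean of at least 2000, 59.5% were called lower. The same contrast chose the members, so nothing is read from this count and no p-values are given for them. All 129 were also called lower at 25 M, against 28.3% of tested genes, and at 17 M, against 26.4%. The standard error of the difference in mean log2 level had a median of 0.45 over the members, with a range of 0.17 to 1.08.

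The 33 genes within the same limits that have a symbol had values like those of the members, as the shared limits in large part require. They kept medians of 49.6%, 17.9% and 23.3% of the naive level in SNT replicates 1, 2 and 3, against 49.3%, 19.1% and 23.1% for the members. They include genes of known function in sensory neurons: Nefh, the heavy neurofilament subunit of large axons, Snap25, a membrane fusion protein of transmitter release, Calca, which encodes the peptide CGRP, the sodium channel genes Scn1a and Scn8a, and Kcnab1, a potassium channel subunit. The functions of the members cannot be read from these genes, and no difference between both sets was tested. These 33 genes are listed in the authors' table of exonic against intronic change, so the sets may differ in gene overlap and intronic reads. Of the 12 gene lists by function, those with the most matched genes were the neuronal cytoskeleton, with 9 of 15 matched genes called lower at 50 M and 2 higher, and calcium and cAMP signalling, with 9 of 10 lower. Among channels, 3 of 4 sodium channel genes were called lower and 1 higher, and 4 of 6 potassium channel, 2 of 3 calcium and HCN channel and 4 of 4 ligand-gated and TRP channel genes were called lower. The numbers called lower were 4 of 5 for vesicle release, 2 of 2 for neuropeptides, 2 of 2 for neurotrophin and GDNF receptors, 3 of 5 for ion pumps and transporters (1 higher), 3 of 4 for energy metabolism and 5 of 5 for cell adhesion and guidance. Between 2 and 15 genes of a list had a symbol. These counts stand beside 29.4% of all tested genes called lower and 59.5% of the genes with a naive mean of at least 2000, and nothing particular to a list is read from them. With equal totals the number called lower was 8 for the cytoskeleton and 7 for calcium and cAMP signalling, and the numbers for the other lists were as given.

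Genes on either side of the set showed the same order of SNT libraries with other levels. The 9 abundant genes with a ratio of 0.15 or below kept a median of 30.9% of the naive level in SNT replicate 1, 2.04% in SNT replicate 2 and 2.43% in SNT replicate 3. The fall in SNT replicate 1 was a median of 70.1% of that in the other SNT libraries. For the 830 abundant genes with a ratio above 0.4 and under 0.8 the medians were 74.3%, 55.5% and 60.0%, and the fall in SNT replicate 1 was 59.7% of that in the others. The members had values between both, at 64.7%. No difference between these sets was tested, since the ratio that separates them is built from the same libraries.

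**Figure D4:**
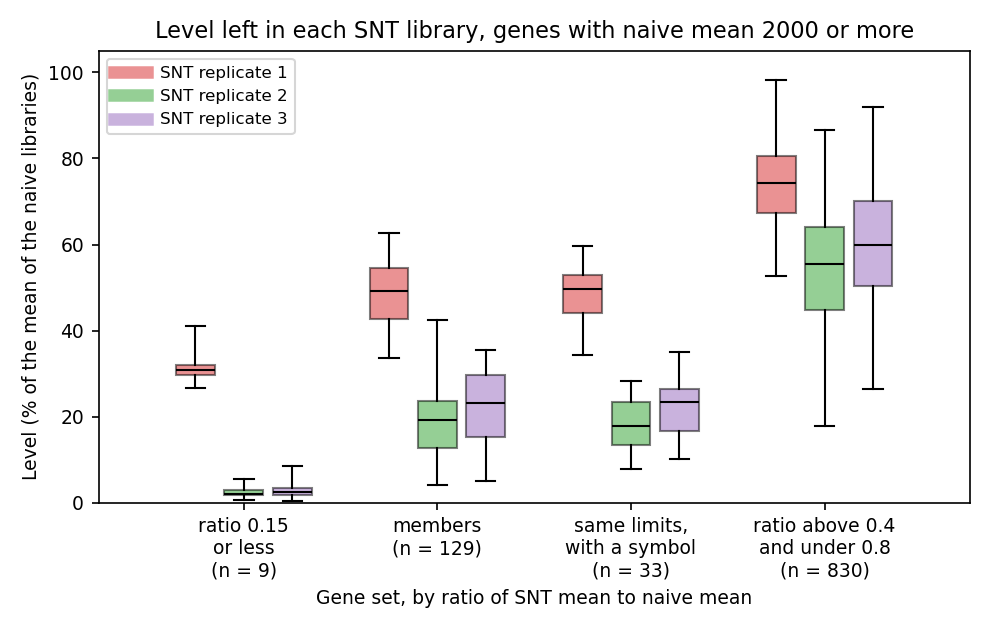
Level left in SNT replicates 1, 2 and 3 at 50 M, as a percentage of the mean of the naive libraries, for abundant genes in 4 sets by ratio of SNT to naive mean. Boxes show quartiles and medians over genes and whiskers the full range. SNT replicate 1 has the highest median in every set, with 30.9%, 49.3%, 49.6% and 74.3% from left to right.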

How the data were processed

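The authors aligned reads to the rat genome Rn5 with Bowtie, discarded those that mapped to more than 1 place, and summed exonic reads per Ensembl gene. The protocol kept no strand information, and genes whose exons all overlap other genes are not listed. The deposited signal values are these counts divided by the DESeq size factor of each library, in 1 table per depth. Near-identical paralogs may lose reads in this way, and reads of a gene and of an overlapping antisense transcript cannot be told apart. Dividing each column by the value of 1 read gave back the reads (100% of values within 0.01 of a whole number).

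Groups were compared within a depth with limma 3.58.1 (R 4.3.3) on log2(normalized count + 1), fitted to every gene detected in 3 or more of the 6 libraries, with a variance prior that follows expression, a two-sided test and Benjamini-Hochberg adjustment at 0.1. edgeR 4.0.16 and DESeq2 1.42.0 were run on the recovered reads as alternatives. The limma and edgeR fits were also run on simulated data. No simulated library was made to stand apart from its group, so this run does not cover the spread among the SNT libraries. Ratios are SNT mean over naive mean. The members and the gene lists were chosen with earlier results of these data known. Of the members, the one with the highest naive mean and the one with the lowest ratio are given by identifier. Symbols were looked for in the copy of the authors' exonic against intronic table and in the RefSeq gene table of GRCr8. The former gives symbols only to genes left out of the set, and in the latter 0 members matched. The fold changes and p-values that the authors give beside the symbols were not used.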

Additional observations from a re-analysis of the deposited data

How the results depend on the processing

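The number of members depended on the limits that define them. It was 203 with a floor of 1000 normalized counts and 70 with 4000, and 213 with a ratio of at most 0.5 and 61 with at most 0.3. With the same floor of 2000 it was 75 in the 25 M table and 38 in the 17 M table, where normalized counts are lower because fewer reads were sequenced. With the floor scaled to the reads of the run, an alternative chosen after seeing the data, it was 132 and 119, of which 128 and 116 were members. Leaving out 1 library gave 92 to 152 genes, and 93 of the 152 found without SNT replicate 1 were members. Scaling libraries to equal totals moved the log2 ratio of all tested genes by a median of 0.16 and gave 90 genes (88 of them members) with a median ratio of 0.342 over the 129 members. The median ratio stayed between 0.216 and 0.366 when 1 library was left out and was lowest without SNT replicate 1.

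All 129 members were called lower at 50 M under 15 of 16 alternatives, edgeR and DESeq2 included, and 127 without a filter on reads. At the same FDR of 0.1, the share of all tested genes called lower ranged from 18.2% without a filter to 33.9% with a mean of at least 10. The same contrast chose the members, so nothing is read from these counts. With a replicate block the number was 129 at each depth. Each library was made from different animals, and no pairing of SNT with naive samples is stated. Deviations of same-numbered libraries correlated at 0.036, -0.17 and 0.082, and those of differently numbered libraries at -0.216 to 0.188. These correlations cannot decide on pairing, since both kinds spread to a like extent. With 3 libraries per group, an exact permutation test could not give a p under 0.1.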
